A study of Trametes versicolor and Gelatoporia subvermispora with 30 samples.

Results

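Gelatoporia subvermispora is a white-rot basidiomycete, a fungus that breaks down the lignin of wood. Transcript levels were compared between cultures given syringic acid and cultures given 4-hydroxybenzoic acid (4HBA). The comparison takes 6 of the 30 RNA sequencing libraries of the study, chosen by their labels: 3 from mycelium grown on 5 g per litre cellobiose with 2 mM syringic acid and 3 from mycelium on 5 g per litre cellobiose with 2 mM 4HBA. Both groups are the same species in the same minimal medium, an adapted Czapek-Dox medium. Their treatment labels differ in the acid. A further group of 3 libraries, from the fungus on 5 g per litre cellobiose without an acid, is given beside them for its levels. The labels name no strain. They also do not say whether the 3 libraries of a group came from separate cultures, so the p-values measure only the spread between libraries. That spread was estimated over all 15 G. subvermispora libraries, in 5 groups of 3, and not from the 6 compared alone.

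The acids are small phenols related to lignin. Both carry a carboxyl group opposite a hydroxyl group on a benzene ring. Syringic acid has a methoxy group on either side of that hydroxyl, as the syringyl units of hardwood lignin do, and 4HBA has none. White-rot fungi attack lignin outside the cell with laccases, which are copper enzymes that oxidise phenols, and with secreted heme peroxidases. The small aromatic acids that result can be taken up, and the title of the study asks how they are broken down inside the cell. The 2 acids were given at the same concentration and form the only pair of compounds compared here.

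Gene counts came to 31.3, 42.5 and 48.6 M (mega-counts) in the 4HBA libraries and to 28.5, 25.6 and 38.4 M in the syringic acid libraries. The first 4HBA library stood apart from the other 5. Its 10 most abundant genes held 43.5% of its gene counts, against 4.07% to 5.95% in the others, and 23.6% of its reads lay outside annotated genes, against 7.32% to 8.17%. In both measures it lay beside the cellobiose libraries, at 32.7% to 36.4% and at 21.5% to 23.1%. Tests were therefore run with and without this library, called 4HBA replicate 1, and each gene called below kept its call and direction without it unless stated. Syringic acid replicate 1 also differed from the other 2 libraries of its group, and its values are given one by one. The labels number the syringic acid libraries 28 to 30 after a low line and the 4HBA libraries 34 to 36 without one. That label series and the acid cannot be told apart. These are bulk samples, in which fewer cells of a kind and less RNA per cell cannot be told apart.

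About as many genes passed the test for a difference between the acids as did not pass it. Of 10860 genes tested with edgeR's quasi-likelihood test, 5602 (51.6%) had a Benjamini-Hochberg adjusted p below 0.05, which is the meaning of "called" below. Genes are said to rise or fall with syringic acid relative to 4HBA, unless cellobiose is named. With syringic acid 2415 genes (22.2%) were higher than with 4HBA and 3187 (29.3%) were lower. Without 4HBA replicate 1 the test called 5357 of 10896 genes (49.2%), 2321 higher (21.3%) and 3036 lower (27.9%). Both fits called 4973 genes in the same direction (45.8%), 2136 higher (19.7%) and 2837 lower (26.1%). The split between higher and lower turned with the scaling: 43.1% of the called genes were higher here, and 51.8% when only the 6 libraries were fitted, so no overall direction is given.

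Most called differences were small. Called genes that also differed at least 2-fold numbered 1066 (9.82%), 449 of them higher and 617 lower. A stricter rule asked for a call in both fits, no overlap between the 3 and 3 libraries and a mean of at least 10 CPM (the unit of all levels below, read counts after all libraries were scaled to one size) in the higher group. Under that rule 368 genes were at least 2-fold higher with syringic acid and 342 at least 2-fold lower. At 4-fold there were 96 and 51, at 8-fold 38 and 7, and at 16-fold 16 and 0. Without that stricter rule, 17 called genes were at least 16-fold higher and 38 at least 16-fold lower with all libraries, and 16 and 2 without 4HBA replicate 1. Over all tested genes, the libraries did not overlap in 2715 genes (25%) with syringic acid on top and in 3519 (32.4%) with 4HBA on top.

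A small set of genes took most of the reads of 4HBA replicate 1. There were 37 genes more than 20-fold higher in that library than in each of the other 5, and together they held 70.1% of its gene counts, 0.609% to 2.11% of those in the other 5 and 53.8% to 60.1% of those in the cellobiose libraries. All 37 were called with all libraries and 20 without it. CERSUDRAFT_109224, first in mean level over the 6 libraries and 21st without 4HBA replicate 1, was at 236200, 797 and 618 CPM with 4HBA and at 1805, 2825 and 2378 CPM with syringic acid. The first 4HBA value is far above the syringic acid values and the other 2 are below them. Its log2 difference, syringic acid minus 4HBA, was -5.08 with all libraries and 1.73 without 4HBA replicate 1 (adjusted p = 0.0245 and 0.00491). The next 4 genes in mean level, CERSUDRAFT_109222, CERSUDRAFT_109801, CERSUDRAFT_109223 and CERSUDRAFT_162690, owed that rank to the same library and lay at 242 to 1258 CPM in the other 5. They also had a log2 value that changed from negative to positive, as had CERSUDRAFT_59487, CERSUDRAFT_61118, CERSUDRAFT_61260 and CERSUDRAFT_61160. Of these 8, CERSUDRAFT_109222 and CERSUDRAFT_162690 were called higher without 4HBA replicate 1 (adjusted p = 0.00154 and 0.00299), and the other 6 were not called (adjusted p = 0.0653 to 0.394). A cause was not tested. Genes with a mean of at least 10 CPM in the higher group were also counted. Of those called with all libraries, 39 changed sign or had an adjusted p above 0.5 without that library.

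**Figure D1:**
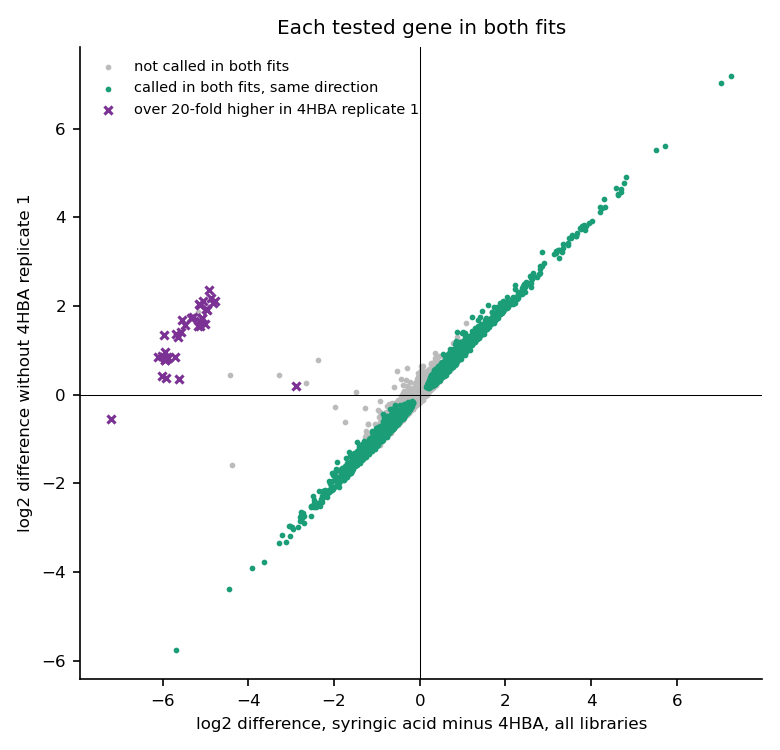
Log2 difference of each tested gene, syringic acid minus 4HBA, with all libraries (horizontal axis) and without 4HBA replicate 1 (vertical axis). Green points, 4973 genes called in both fits in the same direction, lie along the diagonal, and the crosses, 37 genes more than 20-fold higher in 4HBA replicate 1 than in each of the other 5 libraries, lie apart on the left.

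The 12 genes highest with syringic acid, by the rule above, were 11 genes known only by a locus tag and the laccase Cslcs7. The files give no product names for locus tags, so no role is given for them. CERSUDRAFT_126688 was at 15.9, 13.8 and 24.4 CPM with 4HBA and at 1349, 3272 and 3747 CPM with syringic acid. With cellobiose alone it was at 17.8, 17.7 and 19.2 CPM, so the 4HBA libraries lay around the level without an acid and every syringic acid library lay far above both. The log2 difference was 7.27 ± 0.39 (SE; 95% interval 6.43 to 8.11; adjusted p = 3.26e-08) and 7.19 without 4HBA replicate 1.

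CERSUDRAFT_72108 was at 0.825, 0.949 and 0.805 CPM with 4HBA, and at 27, 156 and 160 CPM with syringic acid, of which the first library is the low one. All 3 lie far above the 4HBA values, and the log2 difference was 7.04 ± 0.60 (adjusted p = 8.62e-07). CERSUDRAFT_98240 rose from 7.28, 10.1 and 10.9 CPM to 121, 688 and 732 CPM, by 5.73 on the log2 scale. CERSUDRAFT_115632 rose from 28.4, 29.1 and 29.9 CPM to 488, 1687 and 1855 CPM, by 5.53. In both genes the 4HBA libraries were close to each other and syringic acid replicate 1 was the lowest of its group.

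CERSUDRAFT_102529 had the tightest response of the 12. It was at 12.3, 12.1 and 9.22 CPM with 4HBA and at 250, 258 and 291 CPM with syringic acid. Here the 3 syringic acid libraries lay close together, and the log2 difference was 4.59 ± 0.15 (95% interval 4.27 to 4.90; adjusted p = 2.51e-10). The other 6 were CERSUDRAFT_112362, CERSUDRAFT_94063, CERSUDRAFT_150776, CERSUDRAFT_63592, CERSUDRAFT_115779 and CERSUDRAFT_111480, with log2 differences of 4.82, 4.71, 4.71, 4.63, 4.62 and 4.32. Without 4HBA replicate 1 the 12 differences ran from 4.24 to 7.19.

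Syringic acid replicate 1 was the lowest of its group in all 12 of these genes, 1.03 to 17.4 times below the next library. The pattern was wider than these 12. Among the genes called in both fits and at least 2-fold apart, it was the lowest of the 3 in 329 of 448 higher genes and the highest in 292 of 555 lower genes. Its distance from both others was part of the spread in each test above. A cause was not tested.

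Against cellobiose alone, all 12 genes rose with syringic acid, and 1 of them, CERSUDRAFT_150776, also rose with 4HBA. The percentages of all genes called in those comparisons were 56.5% for syringic acid and 31.5% for 4HBA. Both use the same cellobiose libraries, which differ from 5 of the 6 acid libraries in the measures named above. With library type as a term in the fit (the cellobiose libraries and 4HBA replicate 1 against the rest), 2 of these calls were lost. The log2 difference of CERSUDRAFT_72108 with syringic acid was 7.08 without the term (adjusted p = 8.3e-07) and 7.00 with it (adjusted p = 0.0619). That of CERSUDRAFT_150776 with 4HBA was 1.87 without the term (adjusted p = 0.00562) and 1.22 with it (adjusted p = 0.333). Of 122 differences from cellobiose computed both ways, 30 lost their call with the term and 1 gained one. They cover the genes and symbols ranked by difference and the called members of the enzyme and transporter lists, not every gene named here. The size of the term rests on how 4HBA replicate 1 differs from the other 4HBA libraries. With the term, the difference of 4HBA from cellobiose therefore rests on 4HBA replicate 1 alone. That of syringic acid also depends on this single library. A call lost with the term, here or below, can reflect the loss of libraries from the comparison. Whether library type mattered was not tested. For CERSUDRAFT_150776 the levels were 1.32, 1.55 and 1.46 CPM on cellobiose, 3.38, 5.41 and 6.36 CPM with 4HBA and 67.1, 180 and 170 CPM with syringic acid. The 3 groups do not overlap and form 3 steps, of which the second is by far the larger.

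**Figure D2:**
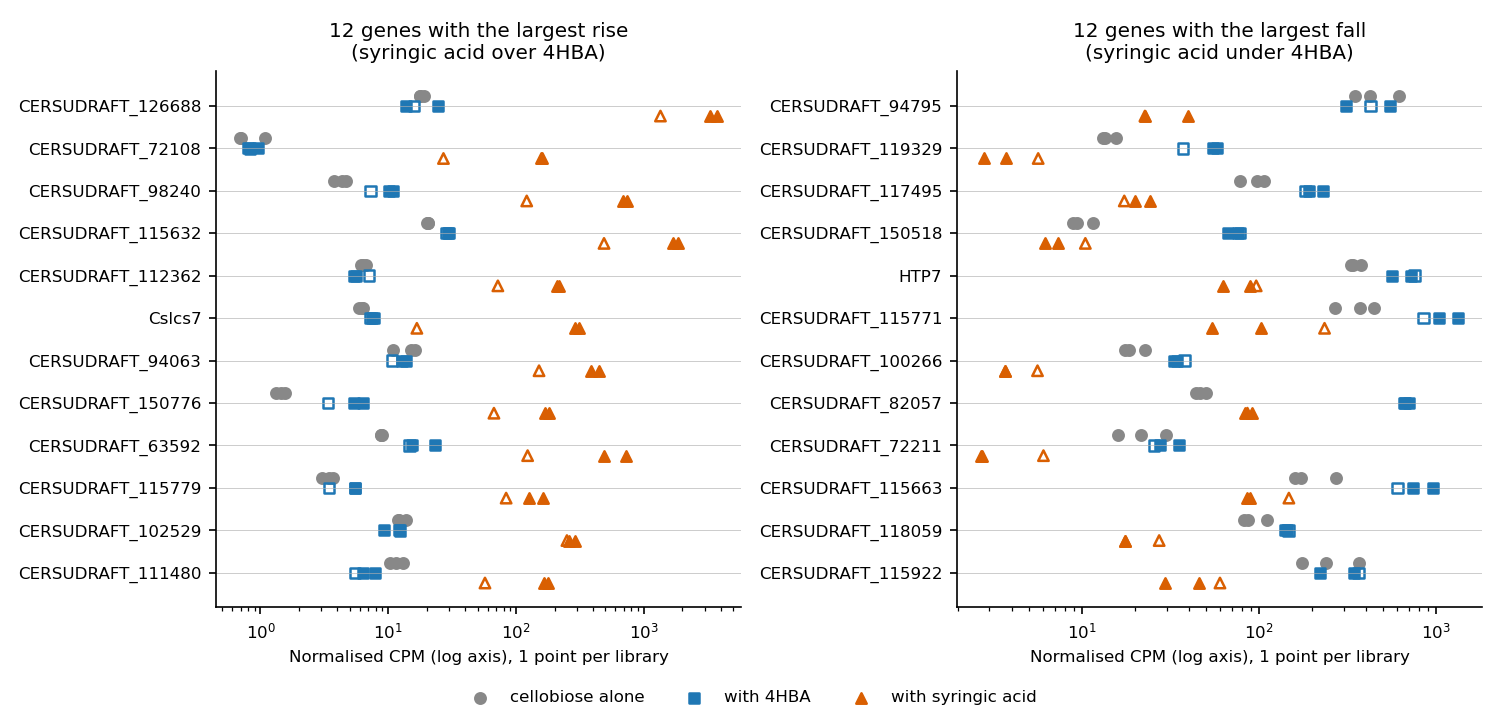
Normalised CPM (log axis) in each library for the 12 genes highest and the 12 genes lowest with syringic acid relative to 4HBA. Circles are cellobiose alone, squares 4HBA and triangles syringic acid, and open squares and triangles are replicate 1 of their group; in the left panel the open triangle is the lowest of its group in all 12 genes, and in neither panel do squares and triangles overlap.

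The 12 genes lowest with syringic acid fell by 2.77 to 3.92 on the log2 scale, so their range was narrower than that of the 12 highest. CERSUDRAFT_94795 was at 425, 311 and 546 CPM with 4HBA and at 22.6, 39.7 and 22.8 CPM with syringic acid. On cellobiose it was at 616, 425 and 348 CPM, which overlaps with 4HBA and lies well above syringic acid. The log2 difference between the acids was -3.92 ± 0.48 (95% interval -4.95 to -2.88; adjusted p = 1.89e-05), and it was -3.92 without 4HBA replicate 1.

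A second pattern among these genes was a high level with 4HBA and a low level both on cellobiose and with syringic acid. CERSUDRAFT_82057 was at 663, 704 and 667 CPM with 4HBA, at 85.8, 83.1 and 90.7 CPM with syringic acid and at 50.4, 43.9 and 46.6 CPM on cellobiose. The 3 groups do not overlap, and the difference between the acids was -2.97 ± 0.51 on the log2 scale (adjusted p = 0.000296). CERSUDRAFT_150518 was at 78.2, 75.7 and 66.3 CPM with 4HBA, at 10.4, 7.30 and 6.17 CPM with syringic acid and at 9.42, 11.5 and 8.88 CPM on cellobiose. Its syringic acid and cellobiose libraries overlap, and the difference between the acids was -3.20 ± 0.24 (adjusted p = 2.82e-07).

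Other genes of this set lay between. CERSUDRAFT_119329 was at 37.1, 54.6 and 58.0 CPM with 4HBA, at 5.66, 2.78 and 3.73 CPM with syringic acid and at 13.2, 15.6 and 13.4 CPM on cellobiose, so the acids lay on opposite sides of the level without one. CERSUDRAFT_117495 had the same order, at 183, 228 and 192 CPM with 4HBA, 17.3, 24.3 and 19.9 CPM with syringic acid and 106, 77.9 and 96.8 CPM on cellobiose. Their log2 differences between the acids were -3.62 and -3.29. Against cellobiose, 10 of the 12 genes fell with syringic acid, all but CERSUDRAFT_150518 and CERSUDRAFT_82057, and 8 rose with 4HBA. With library type as a term, the syringic acid calls of CERSUDRAFT_115771 and CERSUDRAFT_115663 were lost, at -1.95 and -1.40 (adjusted p = 0.0713 and 0.0725) where they had been -1.47 and -0.91. The 4HBA calls of CERSUDRAFT_117495 and CERSUDRAFT_115771 were lost as well, at 0.96 and 1.23 (adjusted p = 0.0955 and 0.167) where they had been 1.10 and 1.57.

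CERSUDRAFT_115771 had 1 syringic acid library that stood apart from the others of its group. It was at 848, 1329 and 1036 CPM with 4HBA and at 234, 54.2 and 103 CPM with syringic acid. Replicate 1 is the high one of the syringic acid group, still below all 4HBA libraries. The log2 difference was -3.04 with all libraries and -3.77 without syringic acid replicate 1. The others were CERSUDRAFT_100266, CERSUDRAFT_72211, CERSUDRAFT_115663, CERSUDRAFT_118059 and CERSUDRAFT_115922 at -3.03, -2.95, -2.84, -2.78 and -2.77, and the heme-thiolate peroxidase HTP7, which is described with its family. Syringic acid replicate 1 was the highest of its group in 9 of the 12.

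In the files 110 genes carry a symbol in place of a locus tag, and 109 of them were tested. With syringic acid 27 were higher and 34 lower, of which 24 and 31 were called in both fits. Over all genes tested 22.2% were higher and 29.3% lower, so the counts among symbols were near that background. Enzyme classes below are read from these symbols, which the read counts by themselves do not test.

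Laccases were represented by 7 symbols, of which 2 rose and 0 fell, where 22.2% of all genes tested rose and 29.3% fell. The median log2 difference of the 7 was 0.32, against -0.065 over all genes tested. Cslcs7 was low without syringic acid, at 6.20, 5.90 and 6.38 CPM on cellobiose and 7.20, 7.71 and 7.50 CPM with 4HBA. It was at 16.7, 311 and 291 CPM with syringic acid. The first syringic acid library was closer to the 4HBA libraries than to the other 2, although the groups do not overlap. The log2 difference was 4.78 ± 0.71 (95% interval 3.25 to 6.31; adjusted p = 9.06e-05), 4.76 without 4HBA replicate 1 and 5.32 without syringic acid replicate 1.

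Cslcs1, the laccase with the highest level, rose less. Its libraries were at 509, 479 and 422 CPM with 4HBA, 1295, 865 and 1117 CPM with syringic acid and 356, 473 and 380 CPM on cellobiose. Here syringic acid replicate 1 was the highest library, and the log2 difference was 1.22 ± 0.24 (adjusted p = 0.000727). The remaining 5, Cslcs2 to Cslcs6, were not called, with differences from -0.17 to 0.51. With syringic acid replicate 1 or 2 left out, 3 of the 7 laccases were called higher. Cslcs2 had a wide interval, -0.11 to 1.13, its libraries being at 86.0, 63.2 and 90.0 CPM with 4HBA and at 165, 59.2 and 115 CPM with syringic acid, which overlap. Cslcs6 had a narrow one, -0.36 to 0.11.

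Other multicopper oxidases were Csfet3 and Csmco1. Csfet3 carries the name of the ferroxidase that serves high-affinity iron uptake in Saccharomyces cerevisiae. It was at 197, 144 and 222 CPM with 4HBA, 306, 521 and 378 CPM with syringic acid and 515, 301 and 470 CPM on cellobiose. The syringic acid libraries lay above all 4HBA libraries and overlapped with cellobiose, and the log2 difference between the acids was 1.10 ± 0.24 (adjusted p = 0.00147; 1.14 without 4HBA replicate 1). Csmco1 fell by 0.56 at a low level, from 3.67, 2.71 and 2.70 CPM to 2.13, 1.65 and 2.10 CPM.

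Secreted class II peroxidases, the heme enzymes of white-rot fungi that oxidise lignin, had 16 symbols. With all libraries 4 rose and 5 fell. Over all genes tested the shares were 22.2% and 29.3%. Without 4HBA replicate 1 the counts were 2 and 3, and the median of the class moved from 0.02 to -0.11.

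Manganese peroxidases, which oxidise manganese(II) to a diffusible oxidant of phenols, made up 13 of the 16. MnP1 stood out among them. It was at 82.1, 66.8 and 58.1 CPM with 4HBA, 282, 321 and 368 CPM with syringic acid and 170, 175 and 243 CPM on cellobiose. The 3 groups do not overlap and the acids lie on opposite sides of cellobiose. The log2 difference between the acids was 2.23 ± 0.17 (95% interval 1.87 to 2.59; adjusted p = 3.02e-07) and 2.37 without 4HBA replicate 1.

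The manganese peroxidases that fell in both fits were MnP5, MnP7 and MnP9, all at low levels. MnP7 was at 16.2, 19.9 and 20.6 CPM with 4HBA and at 13.6, 11.4 and 12.1 CPM with syringic acid, which do not overlap, and it fell by 0.62. MnP5 and MnP9 fell by 0.44 each. A further 4 were called with all libraries and not without 4HBA replicate 1: MnP8 at 0.58, MnP3 at 0.55, MnP10 at -1.31 and MnP12 at -0.94, with adjusted p of 0.0184, 0.0482, 0.0197 and 0.0441 against 0.051, 0.063, 0.0614 and 0.176. MnP10 was at 37.8, 34.6 and 19.6 CPM with 4HBA and at 24.1, 6.08 and 6.76 CPM with syringic acid. The groups overlap through syringic acid replicate 1, without which the difference was -2.24.

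MnP2, the most abundant manganese peroxidase, was not called. Its libraries were at 500, 402 and 385 CPM with 4HBA and at 981, 296 and 400 CPM with syringic acid. The first syringic acid library was the highest of the 6 and the second the lowest. The log2 difference was 0.38 with a 95% interval of -0.71 to 1.47, so these libraries cannot place MnP2 on either side. MnP4, MnP6, MnP11 and MnP13 were also not called, with differences from -0.30 to 0.23. Reads shared between such similar genes may have been split or dropped in the authors' counting, so single members are less certain.

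Lignin peroxidases, which have a higher redox potential, were LiP1 and LiP2. LiP2 was at 471, 417 and 431 CPM with 4HBA, 907, 818 and 888 CPM with syringic acid and 990, 1173 and 1239 CPM on cellobiose. The 3 groups do not overlap, and 4HBA is the low one. With library type as a term the difference of syringic acid from cellobiose was not called. It was -0.38 without the term and -0.23 with it (adjusted p = 0.0165 and 0.44). The log2 difference between the acids was 0.99 ± 0.12 (95% interval 0.72 to 1.25; adjusted p = 2.07e-05) and 1.04 without 4HBA replicate 1. LiP1 was below 0.5 CPM in all 6 libraries and was not called. The generic peroxidase GP was not called either, at 0.08 with an interval of -0.19 to 0.35.

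Heme-thiolate peroxidases, which can insert oxygen into aromatic and aliphatic compounds, had 9 symbols, of which 2 rose and 1 fell, beside 22.2% and 29.3% of all genes tested. The 1 that fell, HTP7, was far the most abundant of them with 4HBA. It was at 755, 718 and 565 CPM with 4HBA, 96.3, 89.0 and 62.6 CPM with syringic acid and 331, 376 and 337 CPM on cellobiose. The 3 groups do not overlap, with cellobiose in the middle. HTP7 differed by -3.04 ± 0.23 on the log2 scale between the acids (95% interval -3.52 to -2.56; adjusted p = 2.82e-07), and by -2.95 without 4HBA replicate 1.

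HTP2 and HTP6 rose by 0.66 and 0.56. HTP2 went from 13.6, 16.9 and 16.5 CPM to 24, 25.3 and 25.5 CPM, with no overlap. HTP6 stayed at or below 2.50 CPM in all 6 libraries, and its call was lost without 4HBA replicate 2 or without syringic acid replicate 1. HTP1 just missed the threshold, at -0.47 with an adjusted p of 0.0591, although its syringic acid libraries, at 43.1, 32.8 and 35.9 CPM, were all below those with 4HBA, at 51.8, 53.2 and 49.5 CPM. The other 5 were not called, with differences from -0.32 to 0.29.

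Peroxidases inside the cell were represented by CCP, the cytochrome c peroxidase, an enzyme that removes hydrogen peroxide in mitochondria. CCP was at 203, 254 and 213 CPM with 4HBA, 432, 475 and 598 CPM with syringic acid and 217, 262 and 236 CPM on cellobiose. The 4HBA libraries overlapped with cellobiose and the syringic acid libraries lay above both. The log2 difference between the acids was 1.17 ± 0.13 (adjusted p = 6.89e-06). PRX5, a symbol for which no class is given here, was at 238, 299 and 281 CPM with 4HBA, 715, 1381 and 1300 CPM with syringic acid and 149, 148 and 165 CPM on cellobiose. Again syringic acid replicate 1 was the low one of its group and the groups did not overlap. With library type as a term the difference of PRX5 from cellobiose with 4HBA was not called. It was 0.82 without the term and 0.62 with it (adjusted p = 0.0069 and 0.182). PRX5 rose by 2.05 ± 0.20 between the acids (adjusted p = 3.07e-06; 1.97 without 4HBA replicate 1).

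**Figure D3:**
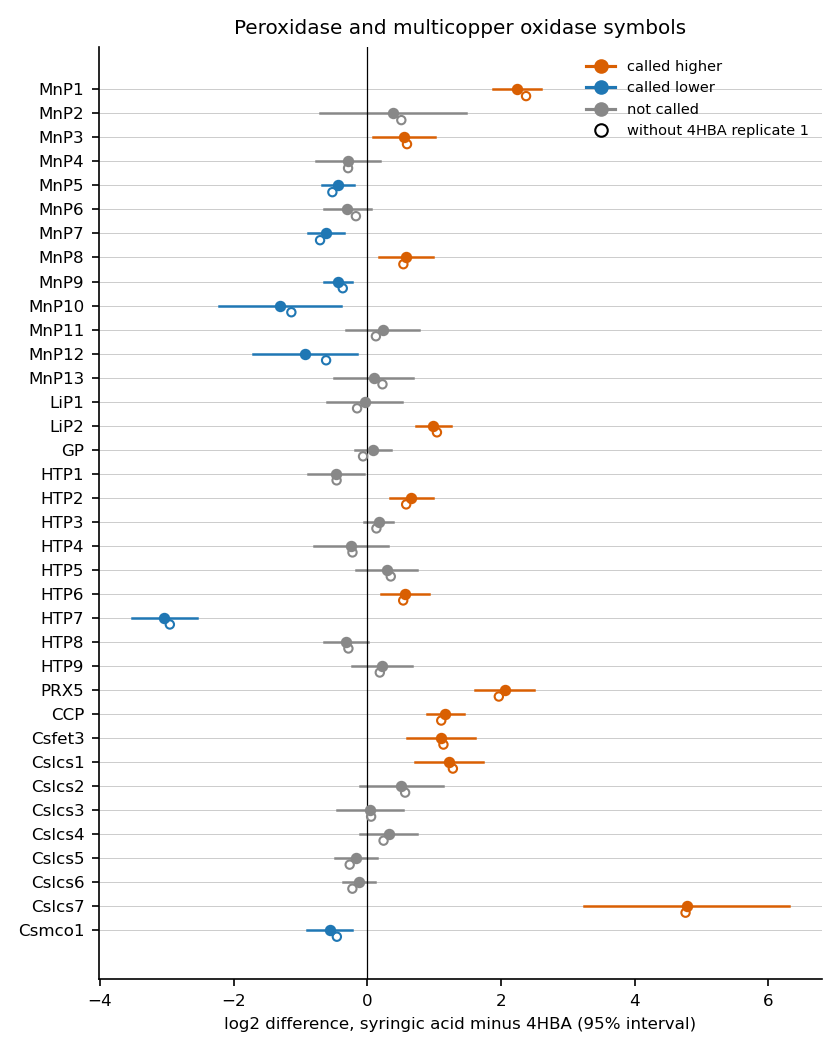
Log2 difference, syringic acid minus 4HBA, for the peroxidase and multicopper oxidase symbols, with the 95% interval with all libraries (filled) and the value without 4HBA replicate 1 (open). Cslcs7 at 4.78, MnP1 at 2.23 and PRX5 at 2.05 lie farthest right and HTP7 at -3.04 farthest left; orange is called higher, blue called lower and grey not called.

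The mating-type symbols moved mostly one way. Mushroom-forming fungi recognise partners through small secreted pheromones and the receptors that bind them, and through a second locus of homeodomain genes. The 22 mating-type symbols also include mip and beta-fg, which are counted with the homeodomain genes and described below. Of the 22, 15 fell with syringic acid and 2 rose, CsPh1 and beta-fg. Their median was -0.70, against -0.065 over all genes tested, of which 29.3% were lower. Without 4HBA replicate 1 the counts were 16 and 2. With each library left out in turn, 13 to 16 fell and 2 rose. The genes of the pheromone and receptor symbols are numbered 7536 to 7563 in the files and those of the homeodomain group 740 to 744. Whether neighbouring numbers mean neighbouring genes is not given in the sources used here, and neighbours may not vary independently.

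Among 12 pheromone symbols 9 fell and 1 rose, where 29.3% of all genes tested fell and 22.2% rose. The count of 9 became 7 when 4HBA replicate 2 or 3 or syringic acid replicate 2 or 3 was left out, in a fit of the 6 libraries alone, and without the genes above 1% of counts. CsPh12 was at 144, 150 and 140 CPM with 4HBA, 70.9, 24.7 and 41.2 CPM with syringic acid and 217, 264 and 269 CPM on cellobiose. The 3 groups do not overlap, and both acids lay below cellobiose. With library type as a term the difference of 4HBA from cellobiose was not called, at -0.80 (adjusted p = 0.288) where it had been -0.79 (adjusted p = 0.0451). Its log2 difference between the acids was -1.66 ± 0.29 (95% interval -2.28 to -1.04; adjusted p = 0.000312). CsPh5 fell by 1.41, from 86.6, 120 and 106 CPM to 49.0, 28.7 and 40.4 CPM. CsPh3 fell by 1.36, from 454, 407 and 423 CPM to 225, 106 and 172 CPM. Neither overlapped, and in both syringic acid replicate 1 was the highest of its group.

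CsPh2, the most abundant pheromone symbol, showed how far that library could stand apart. It was at 844, 1092 and 1100 CPM with 4HBA and at 874, 309 and 582 CPM with syringic acid. The first syringic acid library lay inside the 4HBA range, and the difference of -0.78 passed the test narrowly (adjusted p = 0.0393; 95% interval -1.42 to -0.15). CsPh7 fell by 2.13 at a low level, from 5.03, 5.28 and 7.12 CPM to 1.55, 1.34 and 1.17 CPM.

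CsPh1 was the exception. It rose from 0.750, 0.533 and 0.719 CPM with 4HBA to 6.08, 10.3 and 6.74 CPM with syringic acid, and was at 0.804, 0.900 and 0.865 CPM on cellobiose. The syringic acid libraries lie far above the other 6, though at a low level, and the log2 difference was 3.56 with a 95% interval of 2.76 to 4.37 (adjusted p = 5.13e-06; 3.60 without 4HBA replicate 1). CsPh4 and CsPh8 were below 1 CPM in all 6 libraries and were not called with all libraries, and CsPh8 was called lower without 4HBA replicate 1.

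Of 6 receptor symbols 5 fell and 0 rose, beside 29.3% and 22.2% of all genes tested. CcSTE3.6 fell the most, by 1.18 ± 0.16, from 119, 125 and 136 CPM with 4HBA to 68.8, 42.8 and 55.6 CPM with syringic acid (adjusted p = 3.69e-05). CsSTE3.1, CsSTE3.5, CsSTE3.2 and CsSTE3.3 fell by 0.78, 0.75, 0.66 and 0.50. The 3 and 3 libraries did not overlap in any of these 5. Over all genes tested, 32.4% did not overlap with 4HBA on top. CsSTE3.4 was not called, at 0.00 with a 95% interval of -0.21 to 0.21.

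The homeodomain group showed small or no differences. In other mushroom-forming fungi mip and beta-fg flank the homeodomain genes of that locus. The gene a2-1 fell by 0.31, from 141, 161 and 157 CPM to 121, 130 and 121 CPM, and beta-fg rose by 0.35, from 150, 169 and 171 CPM to 216, 198 and 212 CPM. Neither pair of groups overlapped. The gene a1-1 was at 126, 138 and 134 CPM with 4HBA and 126, 146 and 138 CPM with syringic acid, and its difference was 0.04 with a 95% interval of -0.15 to 0.23. The gene mip was not called, at 0.10.

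**Figure D4:**
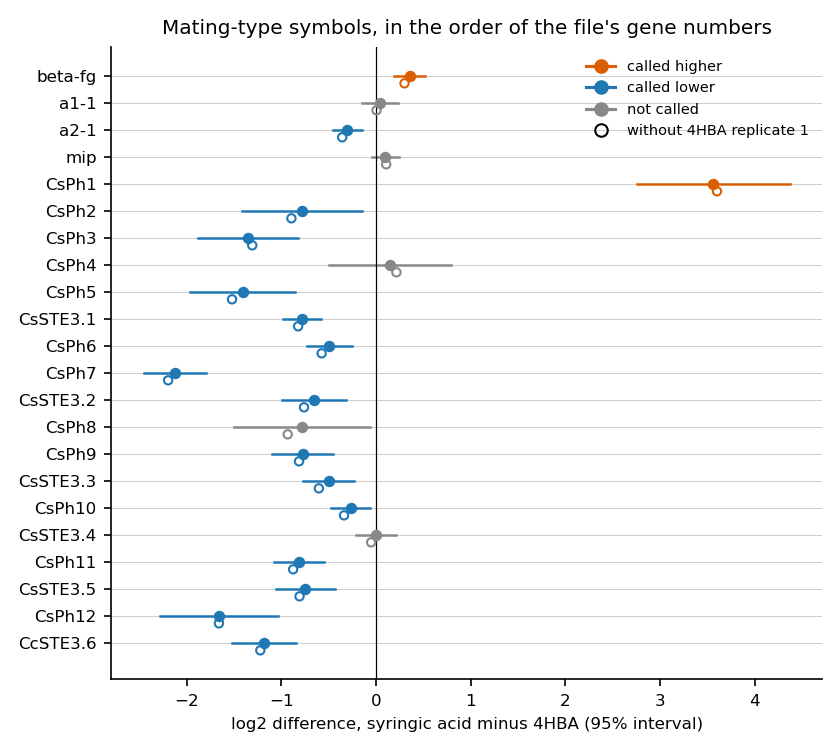
Log2 difference, syringic acid minus 4HBA, for the 22 mating-type symbols in the order of the gene numbers in the files, with the 95% interval with all libraries (filled) and the value without 4HBA replicate 1 (open). Of the 22, 15 lie to the left of 0 and were called, and CsPh1 at 3.56 is the one far to the right.

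Symbols of secondary metabolism went both ways. Of 6 terpene symbols 1 rose and 2 fell, near the 22.2% and 29.3% of all genes tested. The symbols ter14 and acl4, numbered 6888 and 6889 in the files, fell together by 1.09 and 1.32. For ter14 the libraries were at 7.80, 8.04 and 8.65 CPM with 4HBA, 4.30, 4.15 and 3.17 CPM with syringic acid and 20.3, 17.8 and 18.2 CPM on cellobiose, and for acl4 at 11.2, 14 and 14.1, at 4.75, 6.35 and 4.88, and at 29.5, 26.9 and 29.3 CPM. In both genes the groups do not overlap and form the same 3 steps downward, cellobiose, 4HBA, syringic acid. By contrast acl3 rose by 0.19 and ter12 by 0.64, the latter at no more than 3.45 CPM. The fall of ter9, 0.47, was also at a low level and its groups overlap.

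Of the symbols nps1 and nps2, which abbreviate non-ribosomal peptide synthetase, the first fell and the second rose. The libraries of nps1 were at 103, 99.1 and 120 CPM with 4HBA, 30.7, 48.7 and 38.9 CPM with syringic acid and 62.6, 60.1 and 64.0 CPM on cellobiose. The acids lay on opposite sides of cellobiose with no overlap, and the difference between them was -1.45 ± 0.22 (adjusted p = 0.000108). Neither acid's difference of nps1 from cellobiose was called with library type as a term. For 4HBA it was 0.79 without the term and 0.73 with it (adjusted p = 0.0146 and 0.174), and for syringic acid -0.66 and -0.75 (adjusted p = 0.0195 and 0.208). The rise of nps2 was 0.40 with overlapping libraries, and 0.60 without 4HBA replicate 1. The calls of nps2, acl3 and ter9 were each lost without 4HBA replicate 2 or without syringic acid replicate 2, among other single libraries.

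Of 5 transporter symbols of the major facilitator type 4 fell and 0 rose, beside 29.3% and 22.2% of all genes tested. The falls were small: 0.63 for mfs3, 0.50 for mfs2, 0.32 for mfs1 and 0.28 for mfs4. The libraries of mfs1 were at 110, 109 and 112 CPM with 4HBA, 88.8, 87.4 and 90.0 CPM with syringic acid and 71.5, 78.2 and 67.9 CPM on cellobiose, so each group was tight and none overlapped. With library type as a term the difference of mfs1 from cellobiose with syringic acid was not called. It was 0.29 both without the term and with it (adjusted p = 0.0057 and 0.148). The call of mfs4 was lost without 4HBA replicate 3, syringic acid replicate 1 or syringic acid replicate 3. The fifth, msf2, was not called, at -0.18 with a 95% interval of -0.77 to 0.40.

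Another family of 19 genes has the symbol CsMn, for which no class is given here. It had 8 genes called higher and 0 lower, with a median of 0.21, where 22.2% of all genes tested were higher and 29.3% lower. Without 4HBA replicate 1 the counts were 8 and 1, and 7 of the genes higher were called in both fits. The count of 8 became 6 when 4HBA replicate 2 or 3 or syringic acid replicate 2 or 3 was left out. It was also 6 in a fit of the 6 libraries alone, with upper-quartile scaling and with a filter at a mean of 10 CPM. CsMn06 was at 69.4, 79.1 and 82.2 CPM with 4HBA and at 210, 309 and 307 CPM with syringic acid, and it rose by 1.84 ± 0.19. CsMn38 was the more abundant, at 1587, 1651 and 1563 CPM with 4HBA, 4409, 3652 and 4026 CPM with syringic acid and 2579, 3443 and 3373 CPM on cellobiose. In neither gene did the acids overlap, and in CsMn38 the 4HBA libraries were the lowest of all 3 groups. CsMn38 rose by 1.33 ± 0.21 between the acids, CsMn33 by 1.31 and CsMn41 by 0.84.

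Autophagy symbols, for the pathway by which cells digest their own contents, numbered 11, with 2 higher, ATG1 by 0.45 and ATG15A by 0.33, and 2 lower, ATG4 by 0.27 and ATG18 by 0.25. Over all genes tested 22.2% were higher and 29.3% lower. The autophagy count moved to 5 higher and 2 lower under DESeq2's scaling, to 6 and 2 without the genes above 1% of counts, and to 4 and 0 in a fit of the 6 libraries alone. Of 191 transfer RNA genes 11 passed the filter on low counts, of which 1 was higher and 2 were lower.

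Many genes differed little between the acids. Of the 5258 genes not called, 3238 (61.6%) had a 95% interval of the log2 difference within -0.5 to 0.5, and 2793 of these had it without 4HBA replicate 1 as well. Among symbols, CsMn39 was at 149, 121 and 124 CPM with 4HBA and 120, 131 and 126 CPM with syringic acid, with an interval of -0.23 to 0.11. Its groups overlap, as do those of CsMn34, whose interval was -0.05 to 0.45. ATG3 was not called, at 0.13 with an interval of 0.00 to 0.27, although its libraries did not overlap.

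There were 363 genes called only without 4HBA replicate 1, and 608 called only with it. Among the 363 was TOR2, a kinase that couples growth to nutrients. It was at 202, 108 and 116 CPM with 4HBA and at 151, 158 and 144 CPM with syringic acid. The first 4HBA library was above all syringic acid libraries and the other 2 were below. The log2 difference was 0.10 with all libraries (adjusted p = 0.667) and 0.43 without it (adjusted p = 0.00191). TOR1 was not called in either fit, at -0.02 and 0.11. CsMn04 behaved like TOR2, at 344, 233 and 228 CPM with 4HBA and 295, 328 and 312 CPM with syringic acid, with 0.22 and 0.44 in the 2 fits.

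Some genes with neighbouring numbers in the files moved together. After the values had been seen, runs of at least 3 consecutive gene numbers were listed in which every gene was called in both fits and differed at least 2-fold in one direction. There were 17 such runs with 57 genes, 7 higher and 10 lower. Over all genes, 448 higher and 555 lower met the same condition on calls and fold. Whether 17 runs are more than an unordered list would hold was not tested. The longest held 5 genes, numbers 10584 to 10588, all lower: CERSUDRAFT_119249, CERSUDRAFT_119251, CERSUDRAFT_119252, CERSUDRAFT_99906 and CERSUDRAFT_119253, with log2 differences of -1.69, -2.06, -1.72, -1.08 and -1.50. CERSUDRAFT_119252, the most abundant of them, was at 212, 197 and 175 CPM with 4HBA, 47.5, 85.2 and 44.7 CPM with syringic acid and 242, 201 and 203 CPM on cellobiose. The 4HBA libraries were close to cellobiose and the syringic acid libraries lay below both. Outside the run CERSUDRAFT_99902, number 10581, fell by 1.94, with 2 genes not called between.

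The pair ter14 and acl4 belonged to a run of 4 with CERSUDRAFT_116144 and CERSUDRAFT_124685, which fell by 1.64 and 1.83. CERSUDRAFT_116144 was at 61.5, 51.5 and 57.5 CPM with 4HBA, 14.6, 25.1 and 14.9 CPM with syringic acid and 147, 128 and 146 CPM on cellobiose, the same 3 steps as its neighbours. On either side, the genes numbered 6885, 6886 and 6892 to 6895 were also lower, by 0.50 to 1.17, and CERSUDRAFT_116141, number 6887, was not called, at -0.18.

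Among the runs that rose, numbers 7939 to 7941 held the abundant gene CERSUDRAFT_97438. It was at 193, 279 and 176 CPM with 4HBA, 2680, 5239 and 4012 CPM with syringic acid and 1531, 1968 and 2009 CPM on cellobiose. The groups do not overlap, and 4HBA lies farther from cellobiose than syringic acid does. The log2 difference between the acids was 4.20 (95% interval 3.35 to 5.05; adjusted p = 2e-06). Its neighbours CERSUDRAFT_117067 and CERSUDRAFT_67258 rose by 3.87 and 2.45, and CERSUDRAFT_86307, number 7936, by 3.48. For CERSUDRAFT_117067 the libraries were at 37.3, 60.8 and 51.2 CPM with 4HBA, 526, 833 and 830 CPM with syringic acid and 152, 214 and 199 CPM on cellobiose, the same order of groups.

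A run of 4, numbers 6408 to 6411, rose by 1.52, 3.65, 2.30 and 2.64. CERSUDRAFT_115738, the second of them, was at 15.4, 20.9 and 15.6 CPM with 4HBA, 133, 298 and 223 CPM with syringic acid and 30.9, 30.5 and 46.0 CPM on cellobiose. CERSUDRAFT_115741, number 6413, rose by 3.25 with 1 gene not called between. In both, cellobiose lay above 4HBA. The gene with the largest difference of all named here, CERSUDRAFT_126688, was also the middle of a run: its neighbours CERSUDRAFT_118612 and CERSUDRAFT_118613 rose by 2.06 and 1.07, from 44.2, 44.5 and 50.4 CPM to 153, 188 and 240 CPM and from 17.9, 22.9 and 25.6 CPM to 45.8, 47.2 and 48.0 CPM.

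**Figure D5:**
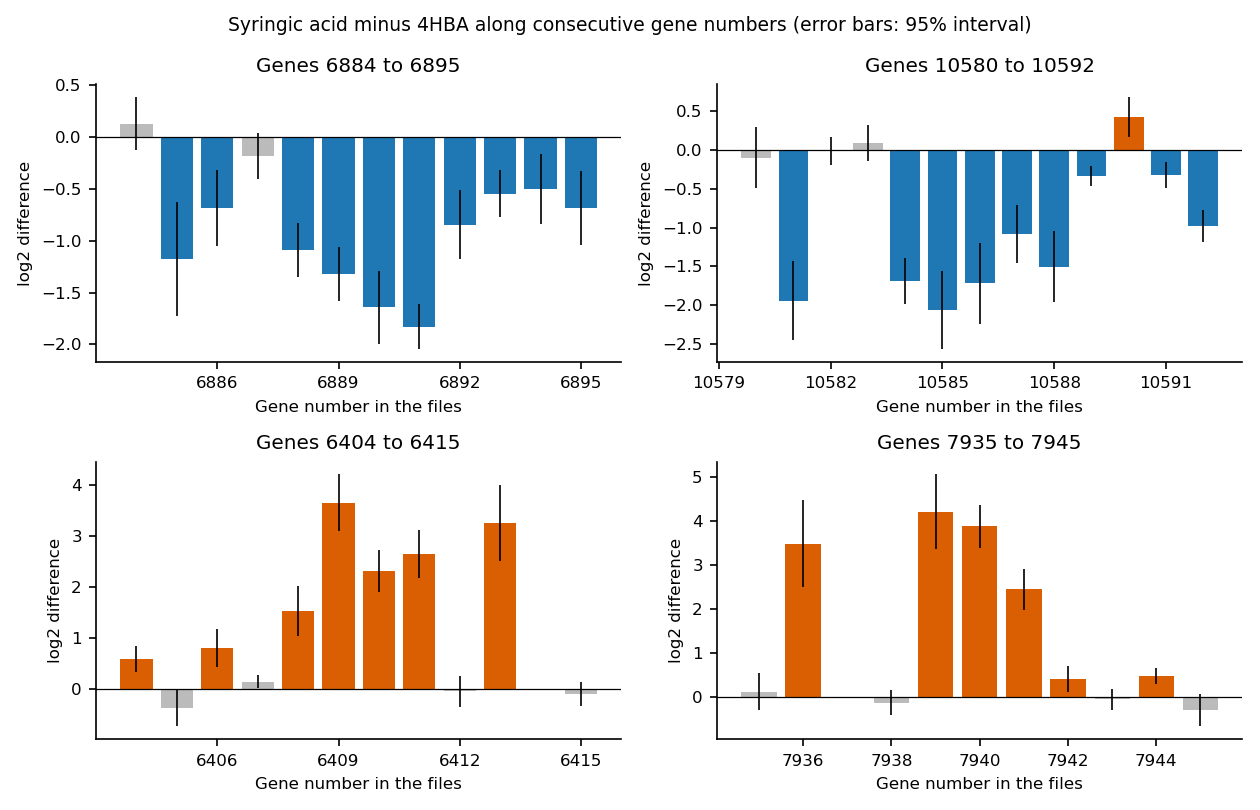
Log2 difference, syringic acid minus 4HBA, of genes with consecutive numbers in the files around 4 runs chosen after the values were seen; error bars are 95% intervals, orange bars were called higher, blue bars called lower and grey bars not called, and genes that did not pass the filter have no bar. The runs at 6888 to 6891 and 10584 to 10588 are lower and those at 6408 to 6411 and 7939 to 7941 are higher, and genes outside each run differ too, such as 6885 at -1.17, 10581 at -1.94, 6413 at 3.25 and 7936 at 3.48.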

How the data were processed

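Per the labels' protocols, ribosomal RNA was removed from total RNA by a yeast kit and stranded libraries were made. The deposited values are read counts per gene, not normalized by the authors; HTSeq, Bowtie, Bowtie2 and FastQC are the tools listed per the submitters' processing notes, with versions, settings and genome build not given in the sources used here. Each file holds 12313 gene rows and 5 summary rows. The summary rows, 8.09% to 27.9% of the counts of the 6 libraries, were left out of library sizes and tests.

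Counts were scaled by TMM, filtered with filterByExpr, and tested in edgeR 4.0.16 (R 4.3.3) with its two-sided quasi-likelihood F-test. All 15 G. subvermispora libraries were fitted together with 1 mean per group (5 groups of 3), and again as 14 without 4HBA replicate 1. Benjamini-Hochberg adjustment was over all genes tested. The naming rule took the 12 largest and 12 smallest log2 differences among genes called in both fits with no overlap and at least 10 CPM, the 10 largest and 10 smallest among symbols, called members of the enzyme lists, 6 symbols close to 0, 4 genes that turned without 4HBA replicate 1 and the 5 most abundant. Members and lists were chosen with earlier results of these data known. Lists rest on symbols, since the files hold no product names, and the symbols Csmco1, a1-1, a2-1, beta-fg and Vps34 were added after the symbols were seen.

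The limit that a count of 0 allows, 3 counts, came to 0.0431 to 0.225 CPM in the 6 libraries and covers counting error only. Replicate pairs differed well beyond counting error, with a chi-square per gene of 26.9 to 4260, so none was a copy. The scripts were tested on simulated data, which had the same spread for every gene and no library that stood apart. Alternatives were RLE and upper-quartile scaling, other filters, the 6 libraries alone, DESeq2 1.42.0, library type as a term (the cellobiose libraries and 4HBA replicate 1 against the other 11), abundant genes left out, and each library left out. Figures were drawn with matplotlib 3.10.9.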

Additional observations from a re-analysis of the deposited data

How the results depend on the processing

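Counts of called genes stayed within 1.5 times of the reported ones in 112 of 112 recomputed counts. With all libraries 4451 to 5660 genes were called, and 4658 to 5357 when 1 library was left out. Without 4HBA replicate 1 the alternatives gave 3855 to 5562. The 24 genes with the largest and smallest differences and the 20 named symbols kept direction and call in every alternative that tested them. Their naming rule already asked for a call with and without 4HBA replicate 1, no overlap and a large difference. Part of this outcome was therefore fixed by the choice of genes. The share higher among called genes ran from 40.1% with upper-quartile scaling to 51.8% with the 6 libraries alone, and the median of all genes moved by at most 0.0615 on the log2 scale. Depth limits genes near 1 CPM, and the acid cannot be told apart from the label series. No paired analysis was possible between the acids because their labels share no numbers.

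Of genes called against cellobiose, 6137 with syringic acid became 2705 and 3417 with 4HBA became 844 with library type as a term, and single libraries left out gave 5276 to 6290 and 2216 to 3728, the 2216 without 4HBA replicate 2. With the term, the 4HBA comparison rests on 4HBA replicate 1 alone, and the syringic acid comparison also depends on that library. The lower counts are therefore no measure of what library type does. The cellobiose and syringic acid labels share the numbers 28 to 30, but same-numbered libraries did not deviate together. The Pearson r over 10712 genes, which are not independent, was -0.078, -0.065 and 0.096. In a fit of those 6 libraries alone, chosen after seeing the data, 6062 genes were called with a replicate block by number and 6420 without it.

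In 9 genes that depended on 4HBA replicate 1 the log2 difference changed from negative to positive in 3 settings. These were library type as a term, without 4HBA replicate 1, and without the first library of both groups, the last chosen after seeing the data. Each of these settings takes 4HBA replicate 1 out of the comparison of the acids, so they are not separate checks. The genes were named for turning without that library or for their mean level with it. CERSUDRAFT_109224, CERSUDRAFT_109222 and CERSUDRAFT_162690 were called higher without 4HBA replicate 1, and the other 6 were not called. In that order of settings the log2 differences were 1.72, 1.73 and 1.88 for CERSUDRAFT_109224, 1.75, 1.75 and 1.93 for CERSUDRAFT_109222, and 0.79, 0.79 and 1.00 for CERSUDRAFT_109801. For CERSUDRAFT_109223 they were 0.79, 0.79 and 1.00, for CERSUDRAFT_162690 1.55, 1.56 and 1.71, and for CERSUDRAFT_59487 0.84, 0.84 and 1.06. CERSUDRAFT_61118 was at 0.42, 0.42 and 0.62, CERSUDRAFT_61260 at 0.87, 0.87 and 1.07, and CERSUDRAFT_61160 at 1.35, 1.36 and 1.65. Leaving out another single library gave values down to -5.66, -5.88, -6.53, -6.53, -5.70, -6.68, -6.59, -6.58 and -6.58 in the same order of genes. Without the first library of both groups 3 laccases were higher and 1 lower.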
